A study of Mus musculus with 4 samples.

Results

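Described here are 31 genes of cholesterol and fatty acid synthesis in T cells from mouse graft-versus-host disease (GVHD). The members are a named list of genes: 18 enzymes of sterol synthesis, 3 genes of sterol regulation and transport (Srebf2, Insig1 and Stard4) and 10 genes of fatty acid synthesis. All 31 were among the genes of the count matrices. In GVHD, T cells of a transplant damage the recipient's organs. The sorted cells are labelled CD4 T cells, strain BALB/c RAG2-/- TS1 Tg, and were taken 4 weeks after transplantation. RAG2-/- animals rearrange no receptors of their own, and TS1 Tg cells carry a transgenic T cell receptor, which all libraries share. They came from spleen, colon, skin and the intraepithelial and lamina propria layers of the small intestine, 5 sources that were pooled for droplet sequencing of RNA 3' ends. There were 2 expression libraries, replicate 1 and replicate 2, and 2 hashtag libraries meant to tell the sources apart. The age of the animals, the recipient strain and whether the replicates came from separate animals are not given in the labels. With the library as a block, p-values set class differences only against counting error and a variation between these 2 libraries that the test pools over genes. That variation may be technical. A gene whose difference is not alike in the 2 libraries can still pass.

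The feature lists of all 4 libraries held genes and 0 hashtag features, so no cell was assigned to a tissue. Comparisons were therefore made between classes of cells within each pooled library, and tissue of origin cannot be told apart from class in any of them. No group without GVHD was analysed here. Classes were defined by unique molecular identifiers (UMIs, each standing for 1 captured RNA molecule) of Itgae with Cd8a, of Tcf7, of cell cycle genes, of Il10 and of Il13 or Csf2, and by a part of the sterol enzymes themselves.

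Cells build cholesterol from acetyl-CoA through mevalonate, farnesyl diphosphate and squalene, and the sterol ring is then trimmed to cholesterol. SREBP2, encoded by Srebf2, is held in the endoplasmic reticulum by INSIG proteins while sterols are plentiful, and switches on most of the enzymes when sterols run low. SREBP1, encoded by Srebf1, acts mainly on fatty acid genes. Activated T cells are known to raise both programmes for membrane growth.

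The expression libraries held 89427990 and 108082997 UMIs. Of the barcodes, 18972 in replicate 1 and 15857 in replicate 2 met the filters for T cells, with medians of 2689 and 3702 UMIs. Every cell was thinned at random to 1500 UMIs, a depth reached by 15260 and 14839 cells, before classes were set. Cd3e had a UMI in 93.2% and 91.9% of the thinned cells and Cd4 in 24.7% and 26.0%, whereas Cd8a was at 536 and 487 CPM (counts per 1000000 UMIs of T cells) and Cd4 at 182 and 194 CPM. The requirement of a Cd3 UMI removed 48 and 41 cells. The thinned cells still held 101 and 92 cells with at least 10 UMIs of neutrophil markers, at median depths of 3270 and 9441 UMIs against 3138 and 3860 in all cells. The libraries shared 578 T cell barcodes, where the product of their numbers over all barcodes gives 44.3. In these pairs the median cell had 15709 UMIs in replicate 1 and 1725.5 in replicate 2, and profiles of paired barcodes correlated at a median r of 0.634, against 0.508 for barcodes paired with their neighbour in the list. The 6 comparisons of a class with all other T cells were therefore also computed without the shared barcodes, and the fits of several classes at once were not.

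The promoters of 24 of the 31 members were found in a RefSeq table of GRCm38.p6. They were searched in the 250 bases before each start, on both strands, for letters known from sterol-regulated genes. CCAAT, the letters bound by NF-Y, an SREBP partner, were present in 16 of 17 sterol members and in 3 of 7 fatty acid members, against 37.5% of the 27025 genes of the table. The GC box GGGCGG was present in 16 of 17 and 4 of 7, against 35.4% of genes. The E-box CACGTG was present in 4 of 17 sterol members (Hsd17b7, Sc5d, Dhcr7 and Insig1) and 0 of 7 fatty acid members, against 6.86%. A strict sterol regulatory element, TCACNCCAC, was present in 1 sterol member, Hmgcs1, and in 1.22% of genes. A gene with several starts was counted when any of its windows held the letters, and none of these motifs contains another. Below are the 250 bases before the start of 4 members, 5′ to 3′ on the gene's strand: Hmgcs1 because it holds the element, Mvd and Ebp as the sterol enzymes with the largest and the smallest difference in the first comparison, and Acly as a fatty acid gene without CCAAT. Capitals mark CCAAT or its reverse complement and, in Hmgcs1, the sterol regulatory element.
Hmgcs1 (chr13:119690101-119690350, GRCm38.p6, plus strand): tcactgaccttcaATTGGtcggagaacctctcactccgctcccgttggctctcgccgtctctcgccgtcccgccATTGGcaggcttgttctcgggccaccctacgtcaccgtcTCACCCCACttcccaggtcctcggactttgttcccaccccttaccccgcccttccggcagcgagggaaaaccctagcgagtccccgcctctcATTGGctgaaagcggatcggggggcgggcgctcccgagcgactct
Mvd (chr8:122443423-122443672, GRCm38.p6, minus strand): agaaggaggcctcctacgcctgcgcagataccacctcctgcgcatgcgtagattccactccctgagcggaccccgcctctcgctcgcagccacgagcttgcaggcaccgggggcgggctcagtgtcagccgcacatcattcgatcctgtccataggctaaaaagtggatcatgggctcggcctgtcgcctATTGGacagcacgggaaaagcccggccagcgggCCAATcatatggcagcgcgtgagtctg
Ebp (chrX:8193513-8193762, GRCm38.p6, minus strand): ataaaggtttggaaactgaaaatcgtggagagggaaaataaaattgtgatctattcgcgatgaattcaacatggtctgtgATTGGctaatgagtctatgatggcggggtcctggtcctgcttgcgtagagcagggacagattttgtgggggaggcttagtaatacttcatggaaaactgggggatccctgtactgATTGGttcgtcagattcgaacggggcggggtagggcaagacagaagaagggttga
Acly (chr11:100528001-100528250, GRCm38.p6, minus strand): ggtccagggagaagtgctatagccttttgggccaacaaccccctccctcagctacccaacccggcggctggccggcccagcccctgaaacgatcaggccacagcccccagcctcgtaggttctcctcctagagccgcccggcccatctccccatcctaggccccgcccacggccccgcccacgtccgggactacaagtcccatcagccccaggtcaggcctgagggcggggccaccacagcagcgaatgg
Ebp holds CCAAT letters as Mvd does. A match is a description of these windows and not a measured binding site.

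Over all T cells, the 21 sterol members took 0.0873% of UMIs in replicate 1 and 0.0783% in replicate 2, and the 10 fatty acid members 0.0128% and 0.0133%. In free RNA, taken from barcodes with fewer than 100 UMIs, the sterol members took 0.0701% in both libraries and the fatty acid members 0.0122% and 0.0113%. Transcripts of the members are thus also in the background of every droplet, and a share in cells is not free of it. A thinned cell held on average 1.14 and 1.04 sterol UMIs, with a variance 1.59 and 1.51 times the mean, so sterol UMIs were spread over cells more unevenly than a Poisson count, whose ratio is 1. Fatty acid UMIs averaged 0.173 and 0.169 per cell with ratios of 1.05 and 1.03. The UMIs count 3' ends and are not divided by gene length.

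The highest level was that of Fdps, the farnesyl diphosphate synthase (chr3:89093588-89101959, minus strand, mm10), at 122 ± 15.6 CPM (mean ± SD, n = 2 libraries). Ebp, a sterol isomerase (chrX:8185329-8193512, minus strand), was at 88.6 ± 1.65 CPM, and Idi1, which isomerises isopentenyl diphosphate (chr13:8885501-8892451, plus strand), at 70.7 ± 11.4 CPM. Srebf2 was at 60.6 ± 0.210, Hmgcs1, the HMG-CoA synthase, at 58.6 ± 5.54 and Sc5d, a sterol desaturase, at 54.5 ± 6.40 CPM. Of the fatty acid genes, Acly, which makes acetyl-CoA from citrate, was highest at 43.5 ± 0.379 CPM. Fasn, the fatty acid synthase, was at 11.3 ± 0.349 and Acaca, which makes malonyl-CoA, at 6.76 ± 0.230 CPM. The lowest levels were those of Scd1, a fatty acid desaturase, at 0.377 ± 0.216 CPM and Fads2, a desaturase of polyunsaturated fatty acids, at 0.510 ± 0.225 CPM. These last genes passed the filter on low counts in no comparison, and the other 29 members were tested in each of the first 5 class comparisons. The filter kept a gene that reached a minimum level in as many sums as the smallest class had. A gene could thus pass through a single class and be near 0 in another.

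The first comparison asked whether T cells with at least 1 UMI of Itgae and at least 1 of Cd8a differed from the other T cells. Itgae encodes the integrin that binds epithelial E-cadherin and Cd8a a chain of CD8, and both are known from intraepithelial T cells. The sterol pathway was higher in these cells nearly throughout: 17 of 18 enzymes rose. Fdps rose by 0.99 ± 0.06 on the log2 scale (± SE) and Mvd by 1.16 ± 0.13, while Ebp did not pass the test. In fatty acid synthesis the desaturase and elongase genes Fads1 and Elovl6, with Acly and Srebf1, rose, and Acss2, which makes acetyl-CoA from acetate, fell. The class held 2247 of 15260 cells in replicate 1 and 2264 of 14839 in replicate 2, or 14.7% and 15.3%.

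Over all 29 tested members, 23 rose and 1 fell with edgeR's quasi-likelihood test, where an adjusted p (Benjamini-Hochberg) under 0.05 was the threshold in all comparisons. Over all 11240 genes, 34.9% passed in either direction, 16.5% higher in the class and 18.3% lower. The median log2 difference was 0.89 over the 18 enzymes, 0.32 over the 8 tested fatty acid genes and 0.00 over all genes. In each of the 18 enzymes both libraries were higher in the class than both were in the rest. The same held for 6 of 7 T cell markers, and 6 of 6 neutrophil markers were lower without overlap. The share of all genes without overlap was not counted, so the 18 are a description. Summed over members, sterol UMIs took 0.112% and 0.102% of the class's UMIs against 0.0702% and 0.0632% of those of the rest, a ratio of 1.61, or 0.69 ± 0.01 on the log2 scale (SD, n = 2 libraries). Fatty acid UMIs took 0.0152% and 0.0133% against 0.0109% and 0.0109%, a log2 ratio of 0.39 ± 0.13. The sterol share of the other T cells lay by that of free RNA, 0.0701%, in replicate 1 and below it in replicate 2.

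**Figure D1:**
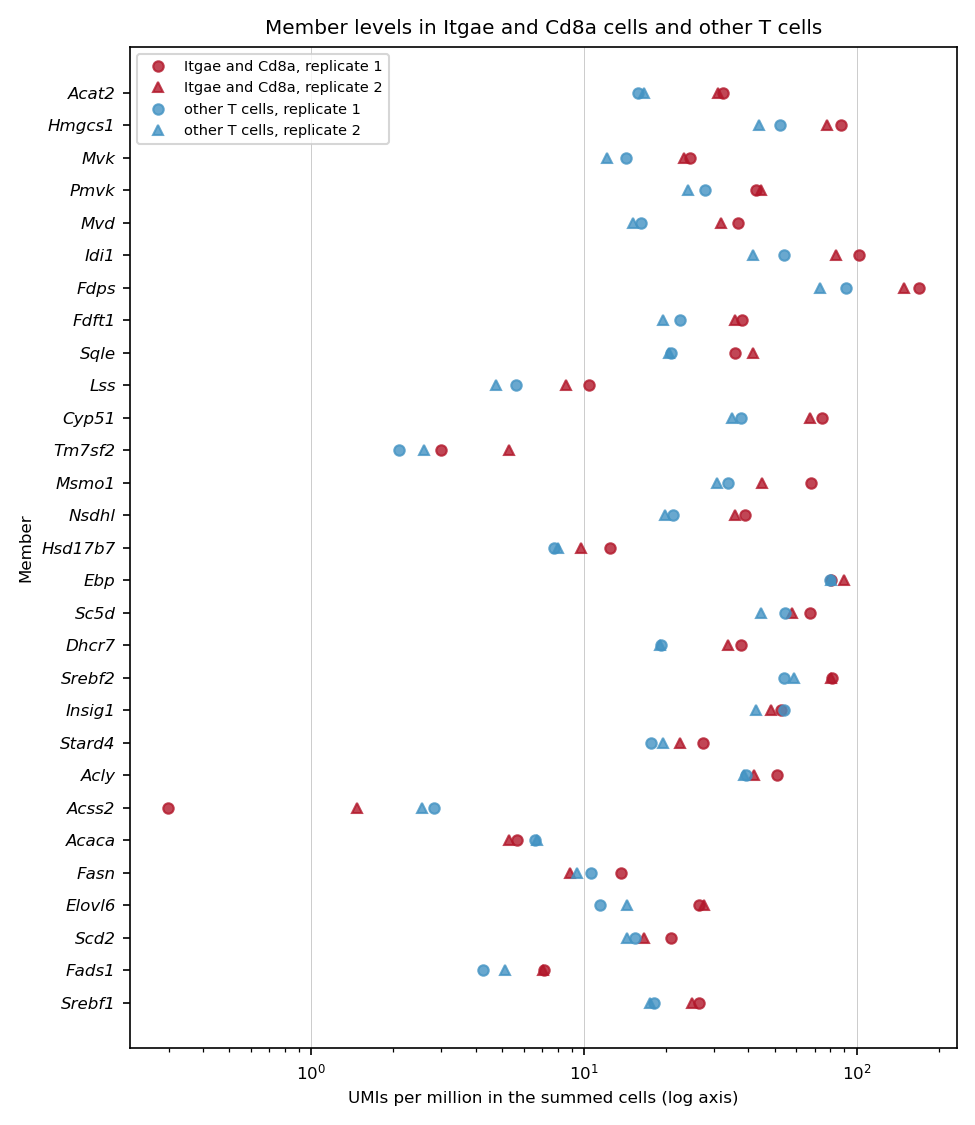
Levels of the 29 tested members in CPM (log axis) in the summed Itgae and Cd8a cells (red) and the other T cells (blue), with circles for replicate 1 and triangles for replicate 2. Fdps lies furthest right, at 170 and 149 in the class against 90.9 and 73.5 in the rest, and the points of Ebp and Insig1 lie close together.

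Along the mevalonate steps, Fdps was at 170 and 149 CPM in the class (replicate 1, then 2, as in all such pairs) and at 90.9 and 73.5 CPM in the rest, with an adjusted p of 8.58e-57 in edgeR's test. Idi1 was at 102 and 83.6 against 54.1 and 41.7 CPM, a log2 difference of 0.98 ± 0.08 with an adjusted p of 4.83e-36 in edgeR's test. For both genes the lower class library lay above the higher library of the rest. Mvd, the mevalonate diphosphate decarboxylase (chr8:122433601-122443422, minus strand), was at 36.6 and 31.9 against 16.1 and 15.1 CPM. Acat2, the cytosolic thiolase at the entry of the pathway, was at 32.4 and 31.003 against 15.8 and 16.6 CPM, and its log2 difference was 1.00 ± 0.13. Hmgcs1 (chr13:119690379-119708260, plus strand), whose promoter is printed above, was at 87.5 and 78.0 against 52.2 and 43.9 CPM. Thus every measured step from acetyl-CoA to farnesyl diphosphate rose, including the kinase genes Mvk, by 0.89 ± 0.15, and Pmvk, by 0.79 ± 0.11.

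Past squalene, Cyp51, the lanosterol demethylase, was at 74.7 and 67.6 CPM against 37.7 and 34.9 CPM, a log2 difference of 1.00 ± 0.09. Sqle, the squalene epoxidase, was at 35.7 and 41.6 against 20.9 and 20.4 CPM. Dhcr7, a reductase at the end of the pathway, was at 37.5 and 33.7 against 19.1 and 19.0 CPM. These 3 genes again showed no overlap between class and rest. The smallest rises among enzymes were those of Sc5d, at 0.37 ± 0.09, and Hsd17b7, a sterol ketoreductase, at 0.53 ± 0.20. Ebp was at 80.3 and 89.8 CPM in the class and at 79.6 and 80.1 CPM in the rest. Its log2 difference of 0.12 ± 0.07 did not pass edgeR's test (adjusted p = 0.188).

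Among regulators, Srebf2 rose, with 81.2 and 80.6 CPM in the class and 54.1 and 58.7 CPM in the rest, a log2 difference of 0.55 ± 0.08. Stard4, a cytosolic sterol carrier, was at 27.4 and 22.4 against 17.6 and 19.5 CPM, a log2 difference of 0.46 ± 0.13. Insig1 was at 52.7 and 48.4 against 54.1 and 42.5 CPM, and its log2 difference of 0.10 ± 0.09 did not pass, with a value of -0.04 when replicate 2 was left out. Its class and rest overlap. In fatty acid synthesis, Elovl6, which lengthens palmitate, was at 26.5 and 27.5 against 11.4 and 14.4 CPM, a log2 difference of 1.09 ± 0.14. Srebf1 rose by 0.56 ± 0.13, Fads1 by 0.63 ± 0.26 and Acly by 0.29 ± 0.10. Acss2, at 0.298 and 1.48 against 2.82 and 2.55 CPM, fell by 1.55 ± 0.54 on the log2 scale, on few UMIs. The values for Fasn, 13.7 and 8.86 against 10.6 and 9.44 CPM, overlap, and neither Fasn nor Acaca nor Scd2 passed.

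Markers of other cells moved with this class. The 6 neutrophil markers summed to 627 and 400.2 CPM in the class against 1763 and 3000.3 CPM in the rest. The 7 epithelial markers summed to 29.4 and 30.0 against 57.1 and 41.1 CPM, with all markers of both lists above 0. Of the 8 myeloid markers, which summed to 199 and 211 against 261 and 318 CPM, Csf1r was at 0 in the class in both libraries. When cells with at least 3 UMIs of 42 markers of other cell types were left out, 22 members passed and the sterol log2 ratio was 0.69 ± 0.003. Of all 10982 genes, 1630 were higher and 1872 lower there. Class cells also had more UMIs before thinning, with medians of 3645 and 4335.5 against 3052 and 3750. Among cells of 2000 to 4000 UMIs, 18 members passed (1145 genes higher and 1409 lower of 10294) and the sterol log2 ratio was 0.74 ± 0.01. Of the cells rich in neutrophil markers, 11 of 101 and 2 of 92 met the class rule. With DESeq2 in place of edgeR, 15 members passed, where 487 genes were higher and 704 lower of 11240.

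Cells were then divided by UMIs of Cd8a and Itgae, in a fit of 4 classes (neither gene, Itgae only, Cd8a only, both). It was added after the class shares had been seen. At 1500 UMIs per cell, Itgae had a UMI in 25.3% and 25.7% of cells and Cd8a in 32.5% and 29.4%. A cell without a UMI of a gene may still express it, so these classes separate the 2 genes only in part. The sterol members took 0.0590% and 0.0547% of UMIs in cells with neither gene. Cells with Itgae only were at 0.0766% and 0.0732%, cells with Cd8a only at 0.102% and 0.0916%, and cells with both at 0.112% and 0.102%. The order was the same in both libraries. The fatty acid members were at 0.00981% and 0.0100%, 0.0123% and 0.0122%, 0.0135% and 0.0136%, and 0.0151% and 0.0133% in the same order, and their exact 95% intervals in replicate 2 overlap among the last 3 classes. Intervals cover counting error only.

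Of the 28 members tested in this fit, 24 rose in cells with both genes against cells with neither, where 19.1% of 9999 genes did so, and 0 fell (20.3% of genes did). In the same fit, 20 rose in Cd8a-only cells against cells with neither gene, where 11.8% of genes did so, and 0 fell (13.6% of genes did). Ebp and Insig1, which did not pass above, were among them, at 0.20 ± 0.07 and 0.40 ± 0.09. In Itgae-only cells 10 rose, where 5.43% of all genes did, and 0 fell (5.7% of genes did). Fdps was higher by 0.62 ± 0.08, Elovl6 by 1.14 ± 0.19 and Mvd by 0.80 ± 0.18. The direct test of Cd8a-only against Itgae-only cells found 9 members higher with Cd8a and 0 lower, where 3.86% of all genes were higher and 5.74% lower. These 9 were Acat2, Hmgcs1, Pmvk, Idi1, Fdps, Cyp51, Msmo1, Dhcr7 and Fasn. Acat2 was at 24.8 and 23.8 CPM in Cd8a-only cells and at 14.1 and 12.9 CPM in Itgae-only cells, a log2 difference of 0.86 ± 0.20. Fdps was at 156 and 139 against 98.8 and 91.5 CPM, a log2 difference of 0.64 ± 0.08. Both genes were higher in each library with Cd8a. Cells with both genes differed from Cd8a-only cells in 1 member, Cyp51, by 0.34 ± 0.10, where 2.69% of all genes were higher with both and 5.13% lower. They differed from Itgae-only cells in 14 members, all higher, where 7.98% of all genes were higher and 10.9% lower.

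**Figure D2:**
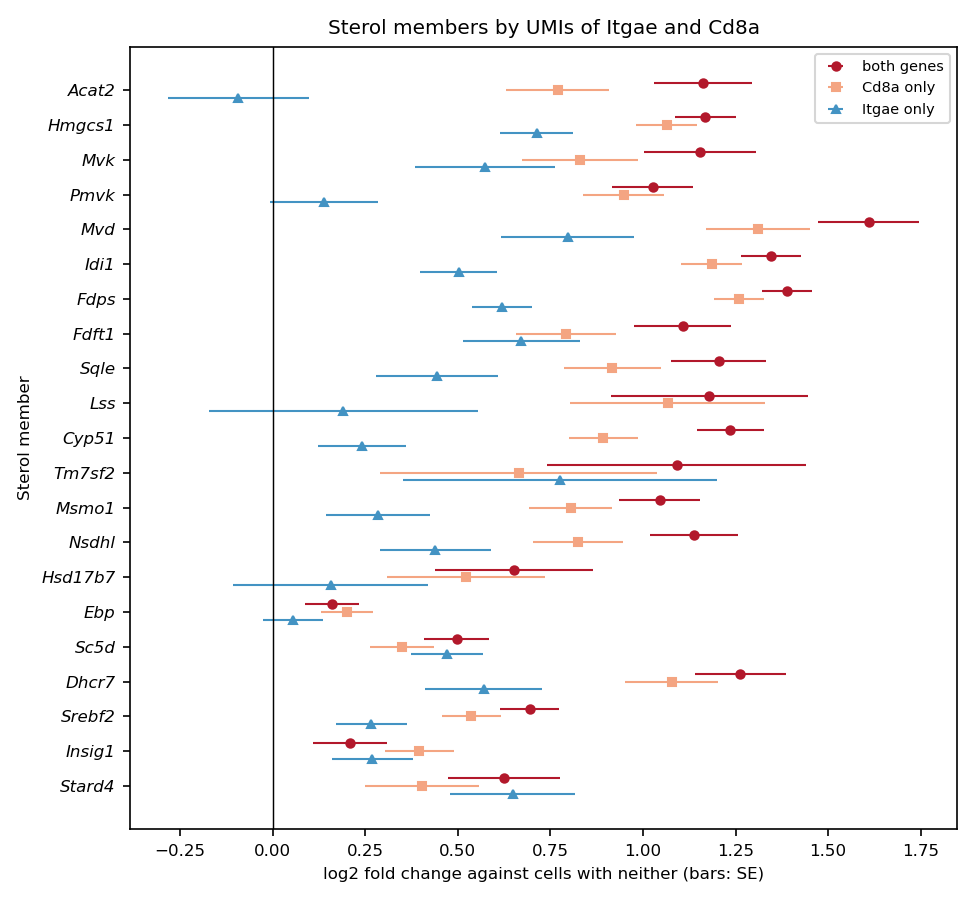
Log2 fold change of the 21 sterol members (points, with SE as bars) in cells with both Itgae and Cd8a (red circles), Cd8a only (orange squares) and Itgae only (blue triangles) against cells with neither. Mvd reaches 1.61 with both genes, and the points of Ebp lie between 0.05 and 0.20 in all 3 classes.

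The second comparison asked whether cycling T cells, with at least 2 UMIs over 20 genes of S phase and mitosis, differed from the rest. Of the 29 members, 15 rose and 0 fell. Over all 11343 genes, 33.1% passed, 19.1% higher and 14.0% lower in the class. Rises were largest in Idi1 and Fdps, the last steps to farnesyl diphosphate, and in the desaturase genes Fads1 and Scd2. Fads1 rose by 0.89 ± 0.22, Fdps by 0.79 ± 0.07, Idi1 by 0.79 ± 0.08 and Scd2 by 0.73 ± 0.13. The median log2 difference was 0.32 over the 21 sterol members, 0.33 over the 8 fatty acid genes tested and -0.02 over all genes. The class held 4557 and 3260 cells, or 29.9% and 21.97%.

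Fdps was at 147 and 122 CPM in cycling cells and at 83.5 and 74.6 CPM in the rest. Idi1 was at 91.8 and 64.2 against 48.1 and 43.6 CPM. Both genes lay higher in each class library than in either library of the rest. Scd2, a desaturase, was at 19.8 and 24.2 against 14.6 and 12.04 CPM, and Fads1 at 6.90 and 8.41 against 3.74 and 4.61 CPM. Fasn, at 16.2 and 9.44 against 8.91 and 9.33 CPM, rose by 0.53 ± 0.16, but its replicate 2 values were nearly alike. Other enzymes that rose were Hmgcs1, Pmvk, Fdft1, Sqle, Cyp51, Nsdhl and Sc5d, by 0.32 to 0.55. Insig1, Stard4 and Srebf1 rose by 0.23 to 0.38. Srebf2, at 59.6 and 57.9 against 57.5 and 63.2 CPM, did not pass, nor did Acat2, Mvd and Dhcr7, whose log2 differences were 0.07 ± 0.13, 0.11 ± 0.13 and 0.04 ± 0.12.

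Sterol UMIs took 0.0914% and 0.0811% of the UMIs of cycling cells against 0.0701% and 0.0658% of the rest, a log2 ratio of 0.34 ± 0.06. The fatty acid log2 ratio was 0.34 ± 0.01. By number of cell cycle UMIs, the sterol share was 0.0691% and 0.0662% in cells with 0, 0.0721% and 0.0650% with 1, 0.0807% and 0.0715% with 2 to 3, 0.0975% and 0.0868% with 4 to 7 and 0.101% and 0.0977% with 8 or more. The share was thus level up to 1 UMI in replicate 2 and higher from 2 UMIs on in both libraries. Cells with 8 or more also had the most UMIs before thinning, with medians of 7858 and 10153.5 against 3205.5 and 3773 in cells with 0.

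Over the whole class, cycling cells had medians of 3076 and 5274 UMIs against 3147 and 3717 in the rest, so that they were deeper in replicate 2 and not in replicate 1. Among cells of 2000 to 4000 UMIs, 0 members passed edgeR's test in this comparison (3 at an unadjusted p under 0.05). Few genes of any kind passed there, 213 higher and 6 lower of 10380. The sterol log2 ratio was 0.36 in replicate 1 and 0.003 in replicate 2. Without the 5% of cells with most UMIs, 7 members passed, where 1326 genes were higher and 653 lower of 11240. With DESeq2 2 did, where 930 were higher and 292 lower of 11343. In non-cycling cells the sterol share was 0.0634% and 0.0526% at 1500 to 1999 UMIs and 0.0959% and 0.0812% at 10000 or more. In cycling cells it was 0.0845% and 0.0672%, and 0.126% and 0.107%. Neutrophil markers were also higher in the class, at 2784 and 4132 against 1090 and 2173 CPM, as were epithelial markers, at 98.6 and 56.9 against 33.6 and 34.5 CPM. Without cells holding at least 3 UMIs of the 42 markers, 16 members passed (2093 genes higher and 1436 lower of 11143) and the sterol log2 ratio was 0.36 ± 0.04.

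**Figure D3:**
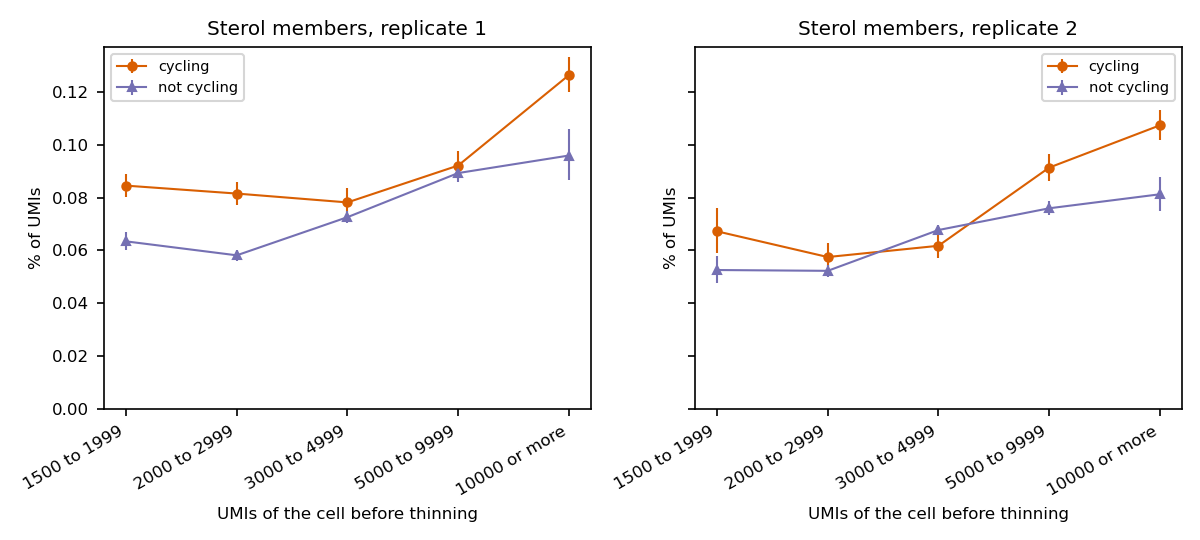
Sterol share of UMIs (percent, after thinning to 1500 UMIs) by the number of UMIs of the cell before thinning, in cycling cells (circles) and other cells (triangles) of each library, with exact 95% binomial intervals. At 10000 or more UMIs cycling cells were at 0.126% in replicate 1 and other cells at 0.0959%, whereas at 3000 to 4999 UMIs in replicate 2 cycling cells, at 0.0617%, lay below the others at 0.0677%.

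The third comparison set T cells with a UMI of Tcf7, which encodes TCF1, a factor of less differentiated T cells, against those without. Of the 29 members, 0 rose and 6 fell: 5 of the 18 sterol enzymes and 1 of the 8 tested fatty acid genes. Over all 11267 genes 8.24% passed, 3.91% higher and 4.32% lower with Tcf7. Those that fell were Idi1, by 1.00 ± 0.15 on the log2 scale, Fdps, by 0.82 ± 0.11, Cyp51, Pmvk and Hmgcs1, by 0.75 ± 0.16, 0.69 ± 0.20 and 0.46 ± 0.13, and Elovl6, by 0.89 ± 0.28. The class held 922 and 906 cells, 6.04% and 6.11%, and of cells rich in neutrophil markers 1 of 101 and 2 of 92 had a Tcf7 UMI.

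Idi1 was at 30.4 and 26.5 CPM with Tcf7 and at 63.0 and 49.5 CPM without. Fdps was at 66.6 and 43.4 against 105 and 87.6 CPM. Neither gene overlapped between the classes. Ebp was at 76.7 and 86.2 against 79.8 and 81.2 CPM, with a log2 difference of 0.00 ± 0.10. The sterol share was 0.0577% and 0.0527% with Tcf7 and 0.0775% and 0.0702% without, a log2 ratio of -0.42 ± 0.01, and the fatty acid ratio was -0.43 ± 0.12. Neutrophil markers moved the same way, at 127 and 450.3 CPM with Tcf7 against 1690 and 2744 CPM. With a class of at least 2 Tcf7 UMIs 0 members passed edgeR's test (4 at an unadjusted p under 0.05). Of all 11085 genes, 61 were higher and 131 lower there. With the class of at least 1 UMI, 2 members passed DESeq2's test, 2 passed edgeR's without the library as a block, and 21 did with all UMIs of the cells summed. Calls over all genes were 153, 99 and 1360 higher and 122, 108 and 1791 lower, in the same order.

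The fourth and the fifth comparison concerned cytokine genes. Cells with a UMI of Il10, which encodes an anti-inflammatory cytokine, held 0 members that rose and 3 that fell, where 6.07% of 11426 genes passed, 3.62% higher and 2.44% lower. These were Hmgcs1, at 40.7 and 27.6 against 58.1 and 50.1 CPM, Cyp51, at 27.2 and 24.7 against 43.8 and 40.6 CPM, and Fdps, at 79.4 and 59.0 against 103 and 86.2 CPM. The class was lower in both libraries for all 3. Their log2 differences were -0.60 ± 0.17, -0.63 ± 0.19 and -0.39 ± 0.12. The sterol log2 ratio was -0.34 ± 0.17 and the fatty acid ratio -0.28 ± 0.15. With DESeq2, without the library as a block, without thinning, or among cells of 2000 to 4000 UMIs, 0 members passed (1, 9, 6 and 3 at an unadjusted p under 0.05). Calls over all genes were 132, 177, 158 and 226 higher and 64, 113, 190 and 144 lower, in the same order. Markers of other cells moved with the class: neutrophil markers summed to 1323 and 1159 against 1608 and 2675 CPM, and 6 of 6 fell. Erythroid markers summed to 11.5 and 24.7 against 105 and 142 CPM, and 4 of 5 tested fell. Without cells holding at least 3 UMIs of the 42 markers, 1 member passed, where 362 genes were higher and 229 lower of 11156.

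In cells with a UMI of Il13, a type 2 cytokine, or Csf2, which encodes GM-CSF, 0 members rose and 7 fell. Over 11365 genes 17.8% passed, 10.2% higher and 7.54% lower. The 7 were Acat2, Pmvk, Mvd, Fdps, Lss, Dhcr7 and Elovl6. Elovl6 was at 5.71 and 15.1 against 14.6 and 16.5 CPM, so that its replicate 2 values lay close. Acat2 was at 9.38 and 15.1 against 19.3 and 19.2 CPM, a log2 difference of -0.64 ± 0.19, and Fdps at 81.6 and 65.7 against 105 and 86.9 CPM, a difference of -0.34 ± 0.09. Both were lower in the class in both libraries. Hmgcs1 and Sqle, at log2 differences of -0.06 ± 0.11 and 0.01 ± 0.15, did not pass. The sterol log2 ratio was -0.22 ± 0.08, and the fatty acid ratio was -0.40 in replicate 1 and 0.01 in replicate 2. With DESeq2, without the library as a block, or among cells of 2000 to 4000 UMIs, 0 members passed (1, 9 and 4 at an unadjusted p under 0.05), and without the shared barcodes 3 did. Calls over all genes were 449, 611, 707 and 1157 higher and 154, 246, 373 and 833 lower, in the same order. Neutrophil markers summed to 797 and 588 CPM in the class against 1692 and 2816 CPM, and 6 of 6 fell. Of the 7 epithelial markers, at 22.8 and 23.1 against 56.7 and 41.2 CPM, 5 fell, and of 7 T cell markers 4 fell and 1 rose. Without cells holding at least 3 UMIs of the 42 markers, 3 members passed, where 1156 genes were higher and 815 lower of 11124.

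**Figure D4:**
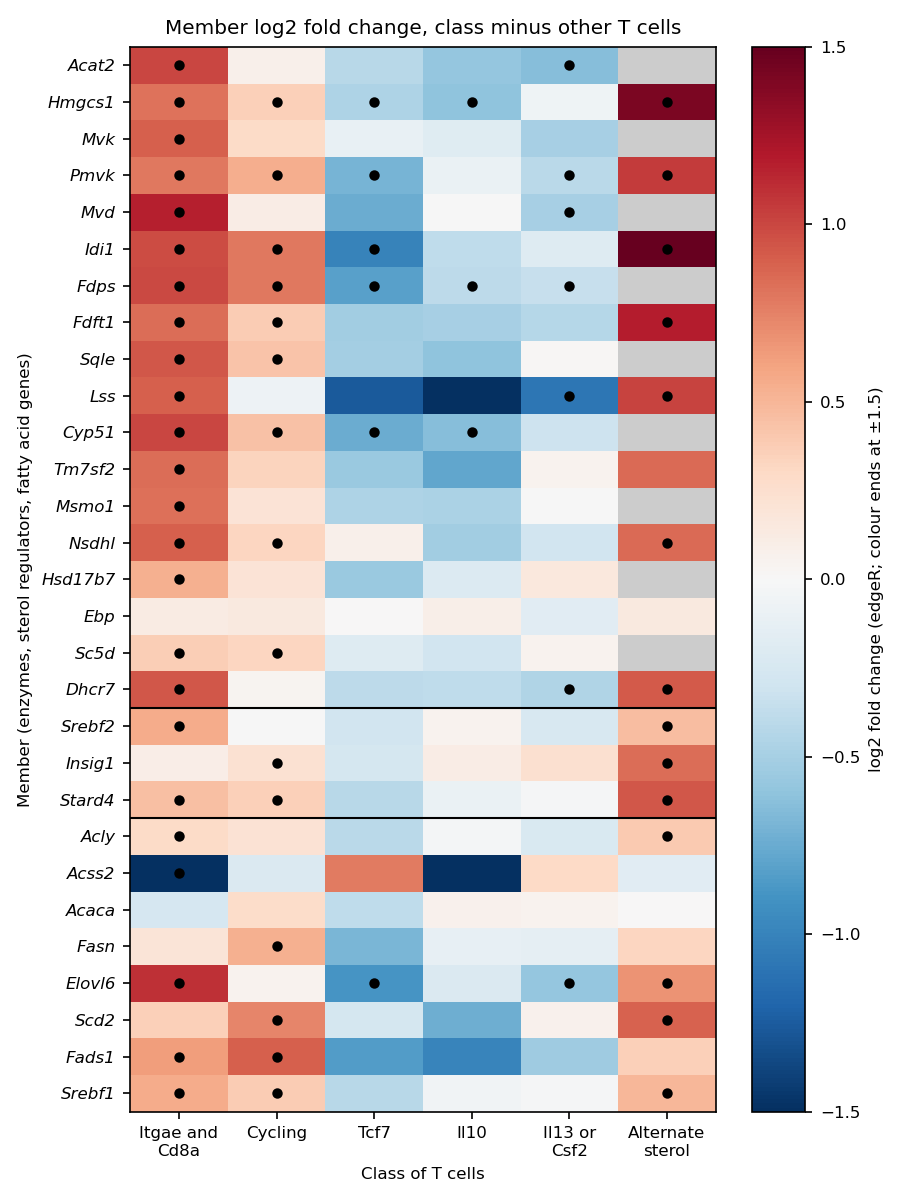
Log2 fold change of the 29 tested members (rows) in 6 classes of T cells against all other T cells (columns), with red for higher and blue for lower in the class. A black dot marks an edgeR adjusted p under 0.05 and grey a gene used to define the class. Dots lie on 24 members in the first column, 15 in the second, 6, 3 and 7 in the next columns and 14 of 20 in the last, and the row of Ebp has no dot.

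Classes overlap, since a cell can cycle and carry Cd8a UMIs. A fit of 12 sums therefore used cells of exactly 1 class against cells of none, leaving out 1574 and 1222 cells of several classes. With 5 residual degrees of freedom, 18 of 28 tested members rose in Itgae and Cd8a cells (13.5% of 9401 genes were higher), and 0 fell (16.3% were lower). Fdps was at 148 and 143 CPM in this class against 76.7 and 66.1 CPM in cells of no class, a log2 difference of 1.05 ± 0.08. In cycling cells 13 rose (18.2% of genes) and 0 fell (16.6%), led by Idi1 at 0.90 ± 0.11. In Tcf7 cells 2 fell, Idi1 and Fdps, by 0.98 ± 0.25 and 0.61 ± 0.15 (2.41% of genes were lower), and 0 rose (2.52% were higher). In Il10 cells 4 fell (2.34% of genes were lower), Hmgcs1, Cyp51, Scd2 and Lss, and 0 rose (3.03% were higher). Lss, the lanosterol synthase, had no UMI there in either library, so that its fitted value is not given. Hmgcs1 was at 20.5 and 20.1 against 49.3 and 42.4 CPM, a log2 difference of -1.09 ± 0.24. In Il13 or Csf2 cells Mvk and Lss fell, by 0.91 ± 0.32 and 1.84 ± 0.57 (5.74% of genes were lower), and 0 rose (9.32% were higher). These 2 of 28 tested members are near the share over all genes, and 0 passed without the library as a block, with DESeq2, in a second random thinning or thinned to 1000 UMIs (2, 2, 4 and 4 at an unadjusted p under 0.05). Calls over all genes there were 630, 567, 833 and 714 higher and 338, 242, 518 and 373 lower, in the same order. In Tcf7 cells 0 passed edgeR's test without the block (7 at an unadjusted p under 0.05), and in Il10 cells 2 did. Of all 9401 genes, 104 were higher and 125 lower with Tcf7, and 173 and 134 with Il10. The class of both Itgae and Cd8a thus stayed well above cells of no class in both libraries, for Fdps as for the summed share of 0.110% and 0.0988% against 0.0652% and 0.0618%.

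**Figure D5:**
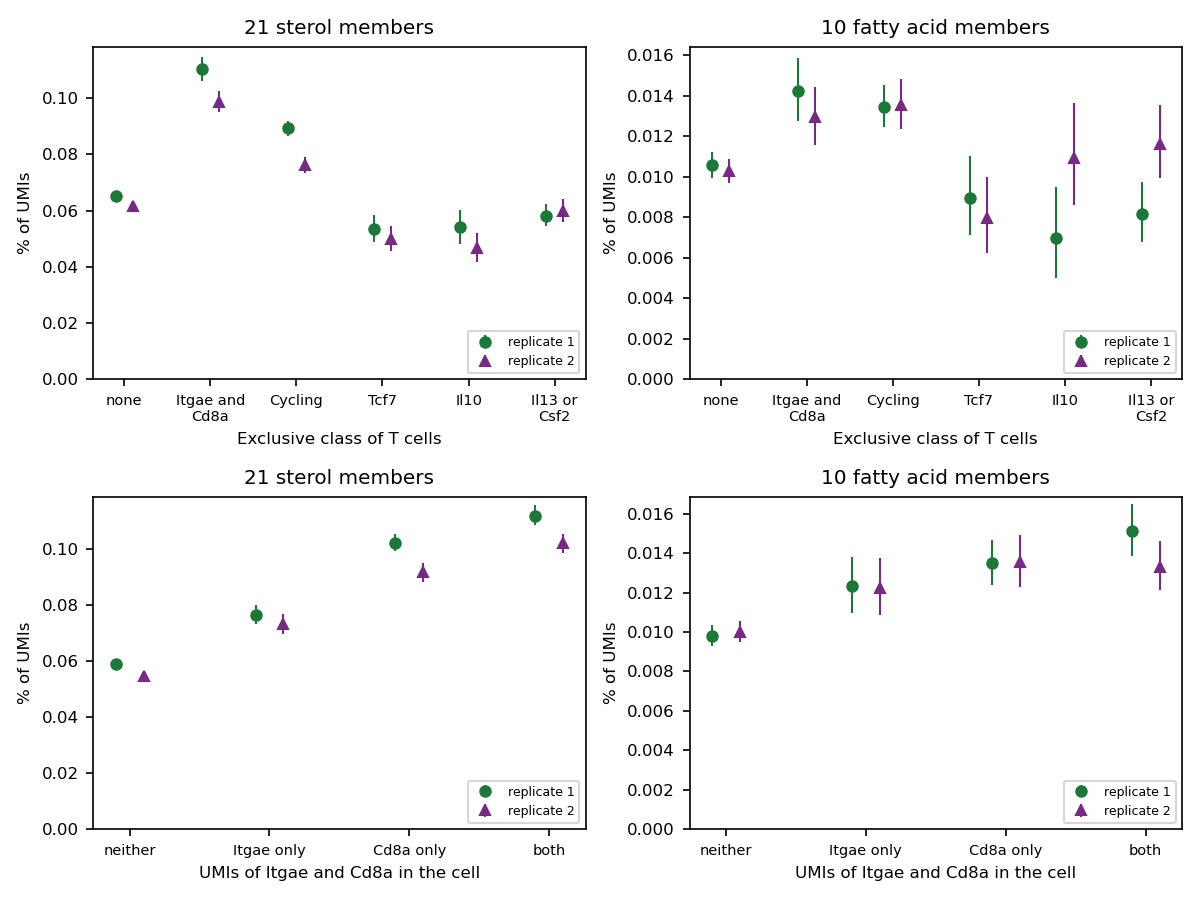
Share of UMIs (percent) of the 21 sterol members (left) and the 10 fatty acid members (right) in cells of exactly 1 class (top) and by UMIs of Itgae and Cd8a (bottom). Circles are replicate 1 and triangles replicate 2, with exact 95% binomial intervals for counting error. The sterol share is 0.110% and 0.0988% in Itgae and Cd8a cells and 0.0535% and 0.0499% in Tcf7 cells.

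The last comparison asked whether the members vary together from cell to cell. Cells were split by the UMIs of 9 enzymes taken alternately along the pathway (Acat2, Mvk, Mvd, Fdps, Sqle, Cyp51, Msmo1, Hsd17b7 and Sc5d), at least 2 against 0 or 1, and only the other members were read. Of the 20 that were tested, 14 rose and 0 fell, where 15.3% of 11303 genes passed, 7.28% higher and 8.05% lower. Of the 9 enzymes not used, 7 rose, and so did Srebf2, Insig1 and Stard4. Idi1 was at 150 and 129 CPM against 51.3 and 40.8 CPM, a log2 difference of 1.59 ± 0.08, and Hmgcs1 at 127 and 121 against 49.8 and 42.5 CPM, a difference of 1.41 ± 0.08. Both genes were higher in each class library than in either library of the rest.

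Insig1, which overlapped in the first comparison, was here at 84.7 and 79.0 against 50.5 and 40.2 CPM, a log2 difference of 0.84 ± 0.09. Stard4 was at 36.6 and 31.9 against 17.1 and 18.8 CPM. Ebp, at 90.4 and 86.6 against 78.5 and 81.1 CPM, did not pass, with a log2 difference of 0.15 ± 0.08. Of the fatty acid genes Scd2, Elovl6, Srebf1 and Acly rose, by 0.89 ± 0.18, 0.67 ± 0.19, 0.50 ± 0.17 and 0.40 ± 0.11. Fasn, Acaca, Acss2 and Fads1 did not pass. The log2 ratio of summed shares was 0.93 ± 0.02 for the sterol members read and 0.50 ± 0.05 for the fatty acid members.

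Of cells in this class, 26.0% and 28.7% also had UMIs of both Itgae and Cd8a, against 13.5% and 14.0% of the others, and 38.8% and 29.1% were cycling, against 28.9% and 21.3%. Among the 5 largest rises of other genes with at least 50 CPM were Cd8a, at 909 and 913 against 444 and 409 CPM, Tcrg-C4, a T cell receptor gamma constant gene, Gzma, which encodes a granzyme, and Spp1, which encodes osteopontin. The 5 largest falls were those of Lyz2, Ngp, Eomes, Defa24 and Hbb-bs. Lyz2 and Ngp are myeloid and neutrophil genes, Defa24 is a Paneth cell defensin and Hbb-bs a globin, and Eomes a T cell transcription factor. Epithelial markers summed to 83.2 and 94.0 CPM in the class against 49.7 and 34.5 CPM, and 5 of the 7 rose. Without cells holding at least 3 UMIs of the 42 markers, 14 members passed, where 755 genes were higher and 837 lower of 11024. Among cells of 2000 to 4000 UMIs 6 passed (187 genes higher and 318 lower of 10269), and the sterol log2 ratio was 0.84 ± 0.03.

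Across 6 exclusive classes in 2 libraries, that is 12 points, Fdps followed the mean of the other sterol members most closely (Pearson r of 0.93), followed by Cyp51 (0.93) and Idi1 (0.92). Ebp and Fasn followed it least, both at 0.10. In free RNA Ebp was at 83.9 and 85.5 CPM, against 89.8 and 87.4 CPM in T cells. Fasn was at 15.2 and 14.3 CPM in free RNA, against 11.5 and 11.0 CPM in T cells. Pmvk, with an r of 0.77, was also higher in free RNA, at 38.0 and 37.9 against 35.9 and 32.5 CPM. Whether free RNA bears on these r values was not tested. The median r was 0.64 over 153 pairs of sterol members, 0.51 over 10 pairs of fatty acid members and 0.54 over 90 mixed pairs, among the 23 members with at least 10 CPM. The points share libraries and the same class definitions, so these values are a description.

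Other genes linked to the pathway were read from lists, whose counts stand beside 16.5% of all genes higher and 18.3% lower in the Itgae and Cd8a class. In Itgae and Cd8a cells, of 5 genes that process SREBPs 1 rose and 1 fell: Mbtps1, a protease that cleaves SREBPs, by 0.44 ± 0.11, and Mbtps2, another such protease, by -0.65 ± 0.22. Of 10 tested genes of sterol efflux, storage and trafficking 3 rose and 3 fell. Soat2, which esterifies cholesterol, was at 14.9 and 15.1 against 7.33 and 7.16 CPM, a log2 difference of 1.08 ± 0.19. Abcg1, a sterol exporter, was at 22.9 and 23.9 against 38.1 and 38.4 CPM, a difference of -0.68 ± 0.12, and Mylip, which encodes a ligase acting on lipoprotein receptors, changed by -0.90 ± 0.25. Each of these genes had both class libraries on the same side of the rest. Of 11 isoprenoid genes, which use intermediates of the pathway for prenylation and other products, 1 rose, Pggt1b, by 0.53 ± 0.15. Of 14 tested companions of fatty acid synthesis 2 rose and 2 fell.

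Of 9 genes of growth and nutrient uptake, 0 rose and 8 fell in Itgae and Cd8a cells, where 16.5% of all genes rose and 18.3% fell. Slc7a5, an amino acid transporter, was at 7.14 and 4.13 against 22.6 and 17.3 CPM, a log2 difference of -1.79 ± 0.20. Tfrc, the transferrin receptor, and Odc1, the ornithine decarboxylase, changed by -1.13 ± 0.21 and -1.10 ± 0.09. In Il13 or Csf2 cells 7 of the 9 rose and 0 fell (10.2% and 7.54% of all genes), with Slc7a5 at 42.4 and 32.6 against 17.7 and 13.5 CPM, a difference of 1.31 ± 0.14. In cycling cells 3 rose and 1 fell (19.1% and 14.0% of all genes), and in the class set by the alternate sterol enzymes 0 rose and 2 fell (7.28% and 8.05%). With Tcf7 0 rose and 1 fell (3.91% and 4.32%), and with Il10 4 rose and 0 fell (3.62% and 2.44%). Every call in the growth list was thus lower in the first class, where 17 sterol enzymes rose, and higher in the fifth, where 6 sterol enzymes fell. In the Il10 class, where 3 sterol enzymes fell, all calls were also higher. In the Tcf7 class, where 5 sterol enzymes fell, the 1 call was lower as well.

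In cycling cells 7 of 15 tested companions of fatty acid synthesis rose and 0 fell (19.1% and 14.0% of all genes), with Acsl5, an acyl-CoA synthetase, at 66.1 and 60.3 against 47.7 and 45.5 CPM. Abcg1, Mylip and Npc2, a cholesterol-binding protein of lysosomes, fell there, by 0.45 ± 0.11, 0.68 ± 0.20 and 0.22 ± 0.05, and 0 of 10 genes of that list rose. With Tcf7, Abcg1 rose by 0.48 ± 0.14, as the only one of 10 (3.91% of all genes rose). With Il10, 2 of the 10 rose and 0 fell (3.62% and 2.44% of all genes): Abcg1, by 0.53 ± 0.16, and Npc2, by 0.49 ± 0.06. In Il13 or Csf2 cells Soat2, at 3.67 and 2.84 against 9.01 and 8.94 CPM, fell by 1.41 ± 0.33. Soat2 rose in the alternate sterol enzyme class, by 0.98 ± 0.23, and Abcg1 fell, by 0.70 ± 0.15.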

How the data were processed

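Single-cell RNA libraries of sorted T cells were read from the deposited UMI count matrices, made with Cell Ranger 3.1.0 and mm10 per the submitters' processing notes. The authors deposited counts of all 6794880 barcodes of the chemistry, with no annotation of cells, and the hashtag matrices were not used beyond their feature lists. Barcodes with at least 1000 UMIs, at least 500 genes, at most 10% mitochondrial UMIs and a UMI of Cd3e, Cd3d or Cd3g were kept, and cells were thinned at random to 1500 UMIs. No doublet caller was run, and the 5% of cells with most UMIs were left out in an alternative. Classes were set on the thinned counts, whose class genes were left out before summing per library and class. The sums were tested with edgeR 4.0.16 (R 4.3.3; quasi-likelihood test, TMM, filterByExpr) with a block for library, because the compared classes come from the same library. Each fit of 4 sums had 1 residual degree of freedom. P-values were adjusted over all tested genes by Benjamini-Hochberg. DESeq2 1.42.0, other scalings, filters, depths and thresholds were tried as alternatives. The tests were also run on simulated data. Exact binomial intervals of 95% cover counting error only. The text names all members, the genes that set the classes, up to 3 called genes of each further list per comparison, and the 5 largest rises and falls in the last comparison, and 1 of these is not reported here. The members and lists were chosen with earlier results of these data known. Gene positions come from GENCODE vM21, and promoters from RefSeq.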

Additional observations from a re-analysis of the deposited data

How the results depend on the processing

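There were 2 libraries, and members had few UMIs in the Tcf7, Il10 and Il13 or Csf2 classes, which limits what can be called there. The causes of the shifts below were not tested. Calls over all genes also changed between settings, and are given as genes higher and lower in the class. Leaving out 1 library is a value with no test. The setting without shared barcodes was chosen after seeing the data. With no replicate block, members called were 2 for Tcf7, 9 for cycling, 0 for Il10 and 0 for Il13 or Csf2, and in exclusive classes 0 for Tcf7, 2 for Il10 and 0 for Il13 or Csf2. Calls over all genes were 99 higher and 108 lower for Tcf7, and 1440 and 609 for cycling. They were 177 and 113 for Il10, and 611 and 246 for Il13 or Csf2. In exclusive classes they were 104 and 125 for Tcf7, 173 and 134 for Il10, and 630 and 338 for Il13 or Csf2. With DESeq2 members called were 15 (Itgae and Cd8a), 2 (Tcf7), 2 (cycling), 0 (Il10), 0 (Il13 or Csf2) and 8 (alternate sterol enzymes), and in exclusive classes 1 for Tcf7, 6 for cycling, 1 for Il10 and 0 for Il13 or Csf2. Calls over all genes were 487 and 704 (Itgae and Cd8a), 153 and 122 (Tcf7), and 930 and 292 (cycling). They were 132 and 64 (Il10), 449 and 154 (Il13 or Csf2), and 161 and 233 (alternate). In exclusive classes they were 137 and 125 for Tcf7, and 1062 and 526 for cycling. Those for Il10 were 248 and 112, and for Il13 or Csf2 567 and 242. With all UMIs summed members called were 21 (Tcf7), 27 (cycling), 9 (Il10) and 20 (Il13 or Csf2). Calls over all genes were 1360 and 1791 of 12987 (Tcf7) and 3804 and 3267 of 13178 (cycling). They were 843 and 692 of 13083 (Il10) and 2177 and 2324 of 13085 (Il13 or Csf2). Without thinning members called were 20 (Tcf7), 26 (cycling), 0 (Il10) and 12 (Il13 or Csf2). Calls over all genes were 1516 and 1670 of 13282 (Tcf7) and 3414 and 2697 of 13236 (cycling). They were 158 and 190 of 13249 (Il10) and 1091 and 716 of 13303 (Il13 or Csf2). Among cells of 2000 to 4000 UMIs members called were 3 (Tcf7), 0 (cycling, Il10, Il13 or Csf2) and 6 (alternate). Calls over all genes were 246 and 208 of 10284 (Tcf7) and 213 and 6 of 10380 (cycling). They were 226 and 144 of 10427 (Il10) and 707 and 373 of 10356 (Il13 or Csf2). For the alternate class they were 187 and 318 of 10269. The stricter class gave 0 members for Tcf7 (61 and 131 of 11085 genes). Leaving out the cells of most UMIs gave 7 members for cycling (1326 and 653 of 11240 genes). Thinned to 1000 UMIs members called were 1 (Il10), 2 (Il13 or Csf2) and 9 (alternate), and in exclusive classes 1 for Il10 and 0 for Il13 or Csf2. Calls over all genes were 241 and 172, 794 and 419, and 291 and 442 in the first 3. In exclusive classes they were 192 and 162 for Il10, and 714 and 373 for Il13 or Csf2. A second random thinning gave, in exclusive classes, 8 members for cycling, 1 for Il10 and 0 for Il13 or Csf2. Calls over all 9508 genes were 1693 and 1497, 279 and 216, and 833 and 518, in the same order. Without cells of other markers members called were 1 (Il10) and 3 (Il13 or Csf2), without cycling cells 5 and 4, and without shared barcodes 3 for Il13 or Csf2. Calls over all genes were 362 and 229 (Il10) and 1156 and 815 (Il13 or Csf2) without other markers. Without cycling cells they were 292 and 243, and 1095 and 743. Without shared barcodes they were 1157 and 833 for Il13 or Csf2.

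The sterol log2 ratio of Itgae and Cd8a cells was 0.63 thinned to 1000 UMIs, 0.75 in the second thinning, 0.90 without thinning, 0.61 with all UMIs, 0.74 at 2000 to 4000 UMIs, 0.72 without the cells of most UMIs, 0.75 without cycling cells and 0.70 without shared barcodes, and the fatty acid ratio was 0.63 at 2000 to 4000 UMIs. For Tcf7 the sterol ratio was -0.55, -0.46, -0.37, -0.54, -0.40, -0.38, -0.39 and -0.41 in the same order and -0.60 with the stricter class, and the fatty acid ratio -0.29, -0.27 and -0.15 in the first 3. For cycling the sterol ratio was 0.44 without thinning, 0.47 with all UMIs, 0.18 at 2000 to 4000 UMIs, 0.25 without the cells of most UMIs and 0.48 with the stricter class. The cycling fatty acid ratio was 0.22 thinned to 1000 UMIs, 0.28 in the second thinning, 0.39 without thinning, 0.48 with all UMIs, 0.36 at 2000 to 4000 UMIs, 0.32 without cells of other markers, 0.26 without the cells of most UMIs, 0.48 with the stricter class and 0.30 without shared barcodes. For Il10 the sterol ratio was -0.11 without thinning and -0.60 with the stricter class, and the fatty acid ratio -0.12 without thinning. For Il13 or Csf2 the sterol ratio was -0.38 with all UMIs and -0.0486 at 2000 to 4000 UMIs. For the alternate sterol enzymes the sterol ratio was 0.83 without thinning, 0.96 with all UMIs, 0.84 at 2000 to 4000 UMIs, 1.27 with the stricter class and 0.96 without cycling cells. Their fatty acid ratio was 0.40 thinned to 1000 UMIs, 0.61 without thinning, 0.81 with all UMIs, 0.41 at 2000 to 4000 UMIs, 0.82 with the stricter class and 0.44 without shared barcodes.

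With either library left out, sterol ratios ranged from 0.68 to 0.70 (Itgae and Cd8a), -0.43 to -0.41 (Tcf7), 0.30 to 0.38 (cycling), -0.46 to -0.22 (Il10), -0.27 to -0.16 (Il13 or Csf2) and 0.91 to 0.94 (alternate). Fatty acid ratios ranged from 0.29 to 0.48, -0.51 to -0.34, 0.34 to 0.34, -0.39 to -0.18, -0.40 to 0.0059 and 0.46 to 0.53, in the same order, with 0.0059 for Il13 or Csf2 without replicate 1. Signs changed for 17 values in all. In Itgae and Cd8a cells Insig1 was -0.0395 without replicate 2 (0.19 without replicate 1), Acaca 0.10 without thinning, and Fasn -0.0918 without replicate 1 (0.37 without replicate 2) and -0.0044 without cycling cells. In cycling cells Srebf1 was -0.0252 thinned to 1000 UMIs and Stard4 -0.13 at 2000 to 4000 UMIs. With the alternate enzymes Acss2 was 0.70 with all UMIs, 0.13 without replicate 2 (-0.59 without replicate 1) and 0.33 without thinning, and Ebp -0.0031 without cycling cells. Acaca there was -0.98 at 2000 to 4000 UMIs, -0.013 with no filter, -0.0055 without replicate 1 (0.0363 without replicate 2), -0.0297 with the stricter class, -0.0011 without cells of other markers and -0.0651 without the cells of most UMIs. Apart from these, 158 of the values for member counts and ratios stayed within 1.5 times the count or 1 SD, RLE size factors in place of TMM among them.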

Other observations

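Cells with UMIs of Il13 and of Csf2 were also read apart. The 21 sterol members took 0.0733% and 0.0657% of UMIs in cells with Il13 only, 0.0612% and 0.0610% in cells with Csf2 only, 0.0597% and 0.0606% in cells with both and 0.0778% and 0.0698% in cells with neither, in replicates 1 and 2.

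By phase, cells with at least 2 UMIs of S phase genes and 0 of mitotic genes had a sterol share of 0.0897% and 0.0766%, and those with at least 2 mitotic UMIs and 0 of S phase 0.0866% and 0.0800%. Cells with at least 2 of each were at 0.0977% and 0.0916%, with median depths of 5470 and 9807 UMIs before thinning. Within the Itgae and Cd8a class, cycling cells were at 0.119% and 0.123% and the others at 0.109% and 0.0970%.

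Cells rich in epithelial markers, 45 in replicate 1 and 16 in replicate 2, had sterol shares of 0.153% and 0.221%, against 0.0763% and 0.0691% of all cells kept as T cells, at median depths of 3591 and 43605.5 UMIs before thinning against 3138 and 3860. Of them 17.8% and 37.5% met the rule of the alternate sterol enzymes, against 9.92% and 8.32% of all.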
